A study of Mus musculus with 6 samples.

Results

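The 8 intermediate filament genes described here are Nefl, Nefm, Nefh, Ina, Prph, Nes, Vim and Gfap. They were chosen by symbol, as the genes of the neuronal filament proteins and of the filament proteins of neural progenitors and glia, among 22869 gene symbols measured. All 8 were in the table and all 8 passed the filter on low counts. Gfap passed it through its midline counts.

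Transcripts had been sequenced from 6 libraries of mouse embryos of mixed strain at the embryonic stage E14.5. The 3 libraries of Ret+ RA mechanoreceptors, numbered 2, 8 and 9, were sorted by fluorescence from dissociated dorsal root ganglia of the genotype Ret-CreERT2; Rosa26-Tdtomato. In that genotype a tamoxifen-dependent Cre recombinase under Ret switches on a red fluorescent protein. The pregnant mothers had been given 4-hydroxytamoxifen by gavage at 1.5 and 2 mg, but the labels do not tie a dose to a library. The 3 libraries of the dorsal column midline, numbered 2, 3 and 5, were cut by laser from frozen, hematoxylin-stained spinal cords of wild-type embryos, and the labels describe these cells as descended from the roof plate. Cell type, tissue, isolation method, genotype and tamoxifen therefore change together and cannot be told apart. In bulk libraries such as these, fewer cells of a type and less RNA per cell cannot be told apart either. Whether 2 replicates share an embryo or a litter is not given in the labels.

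Intermediate filaments are rope-like polymers of the cytoskeleton, built from coiled-coil proteins that each cell type chooses from a large gene family. In mature axons the light, medium and heavy neurofilament subunits co-assemble with alpha-internexin in the central nervous system and with peripherin in peripheral nerves, and they set axon calibre. Radial glia and other neural progenitors build their filaments from nestin and vimentin, and astrocytes later add glial fibrillary acidic protein. Vimentin is also the filament protein of fibroblasts, endothelium and other mesenchymal cells.

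The promoters of genes from both classes are shown because Prph, of the neuronal class, and Nes and Vim, of the other, moved in opposite directions between the cell types, as described below. Ina and Gfap, which did not pass the test, are shown beside them. The RefSeq promoter table for GRCm38.p6 held 5 of the 8 members (Ina, Prph, Nes, Vim and Gfap). The 250 bases before the annotated start are given 5′ to 3′ on the strand of the gene, which is the plus strand for the first 4 and the minus strand for Gfap. Capitals mark each match on either strand to TATAAA (the TATA box), CCAAT (the CCAAT box) or GGGCGG (the GC box, read CCGCCC on the other strand). The windows are chr15:99054924-99055173 for Prph, chr19:47014431-47014680 for Ina, chr3:87970843-87971092 for Nes, chr2:13574061-13574310 for Vim and chr11:102897201-102897450 for Gfap.
Prph: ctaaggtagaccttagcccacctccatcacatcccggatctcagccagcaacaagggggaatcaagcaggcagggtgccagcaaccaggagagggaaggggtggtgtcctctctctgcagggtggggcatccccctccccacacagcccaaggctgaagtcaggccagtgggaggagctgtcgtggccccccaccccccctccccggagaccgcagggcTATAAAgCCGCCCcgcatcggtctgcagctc
Ina: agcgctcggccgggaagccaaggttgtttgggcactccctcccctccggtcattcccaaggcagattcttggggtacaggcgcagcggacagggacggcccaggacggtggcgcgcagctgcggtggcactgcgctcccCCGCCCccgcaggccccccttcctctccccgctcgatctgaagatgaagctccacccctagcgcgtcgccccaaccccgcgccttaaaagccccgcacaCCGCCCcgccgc
Nes: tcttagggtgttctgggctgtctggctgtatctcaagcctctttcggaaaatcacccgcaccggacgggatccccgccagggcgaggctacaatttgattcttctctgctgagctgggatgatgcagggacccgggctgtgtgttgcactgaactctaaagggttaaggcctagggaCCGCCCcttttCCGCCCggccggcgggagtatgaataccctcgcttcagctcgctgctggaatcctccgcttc
Vim: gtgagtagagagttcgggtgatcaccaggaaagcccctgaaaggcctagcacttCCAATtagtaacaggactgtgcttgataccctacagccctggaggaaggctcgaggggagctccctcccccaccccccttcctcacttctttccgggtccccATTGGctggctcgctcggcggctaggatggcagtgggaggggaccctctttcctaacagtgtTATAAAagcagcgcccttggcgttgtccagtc
Gfap: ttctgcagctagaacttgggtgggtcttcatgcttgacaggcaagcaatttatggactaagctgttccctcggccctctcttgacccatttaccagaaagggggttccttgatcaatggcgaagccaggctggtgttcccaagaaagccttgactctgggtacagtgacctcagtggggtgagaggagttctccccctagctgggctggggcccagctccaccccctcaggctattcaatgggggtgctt

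Prph and Vim each held a TATA box, whose first base lay at -31 and -32 from the start. Among 27025 promoter windows of the same length, 13.0% held that motif on either strand. Vim also held CCAAT boxes at -196 and, on the other strand, -94, a motif found in 34.5% of all windows. GC boxes on the other strand lay at -24 in Prph, at -111 and -12 in Ina and at -73 and -62 in Nes, and 32.9% of all windows held a GC box. The Gfap window held no match to these 3 motifs. No window of the 5 held TGACGTCA (the cyclic AMP response element, in 1.62% of all windows) or TGANTCA (the AP-1 site, in 6.87%). No 2 of the marked matches share a base. Guanine and cytosine made up 70.8% of the Ina window, 65.2% in Prph, 58.8% in Nes, 58.4% in Vim and 55.6% in Gfap, against a median of 52% over all windows. Nefl and Nefm are neighbouring protein-coding genes on chromosome 14 in the same annotation, whereas Nefh and Gfap lie apart on chromosome 11.

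Over all transcript rows each mechanoreceptor library held 12031898 to 13801474 counts, and each midline library 5599811 to 8081153. Ret, the gene whose Cre line marked the sensory cells, stood at 988, 1036 and 788 CPM (counts scaled to library size by the TMM method) in mechanoreceptors 2, 8 and 9, and at 13.6, 41.9 and 20.8 CPM in midline 2, 3 and 5. Of 10 sensory neuron markers 7 were higher in mechanoreceptors, against 18.8% of all genes tested. The 10 had a summed level of 4487 to 5188 CPM in mechanoreceptors and 123 to 185 CPM in the midline. Runx3 and Ntrk3, which mark classes of sensory neuron, were among the markers that did not pass. Isl2, 1 of the 7, passed the filter on low counts through its mechanoreceptor counts, so it could be called only toward mechanoreceptors. In the midline 6 of 7 roof plate markers and 6 of 7 radial glia markers were higher, against 18.9% of all genes tested. Wnt1 and Gdf7 of the roof plate list had no count in any mechanoreceptor library. The 6 roof plate markers passed the filter on low counts through their midline counts, so they could be called only toward the midline. The same holds for Pax6 of the radial glia list, with 2 counts in each mechanoreceptor library. Slc1a3, Sox2 and Hes5 of that list also needed their midline counts to pass the filter. Midline 2 stood apart from midline 3 and 5: its 7 skeletal muscle markers summed to 12652 CPM against 151 and 1248, its 6 meningeal and connective tissue markers to 6537 CPM against 578 and 1045, and its 3 keratinocyte markers to 403 CPM against 3.35 and 3.95.

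The neurofilament triplet and Prph were 40.2 to 146 times higher in mechanoreceptors, while Nes and Vim were higher in the midline. Ina and Gfap were not called. With edgeR's quasi-likelihood test and a Benjamini-Hochberg adjusted p under 0.05 over 15314 genes, 6 of the 8 members were called, as were 37.8% of all genes tested. Of these, 4 were higher in mechanoreceptors, against 18.8% of all genes tested, and 2 were higher in the midline, against 18.9%. The groups did not overlap in any of the 8 members, a pattern shared by 54.8% of all genes tested. The median log2 fold change (mechanoreceptor minus midline throughout) was 3.32 over the members and -0.05 over all genes tested. The members' median lies between Ina (1.31) and Nefl (5.33). It depends on the choice of 5 neuronal and 3 progenitor and glial genes, whose log2 fold changes had opposite signs. The plot of CPM by library shows the 8 genes in each of the 6 libraries.

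**Figure D1:**
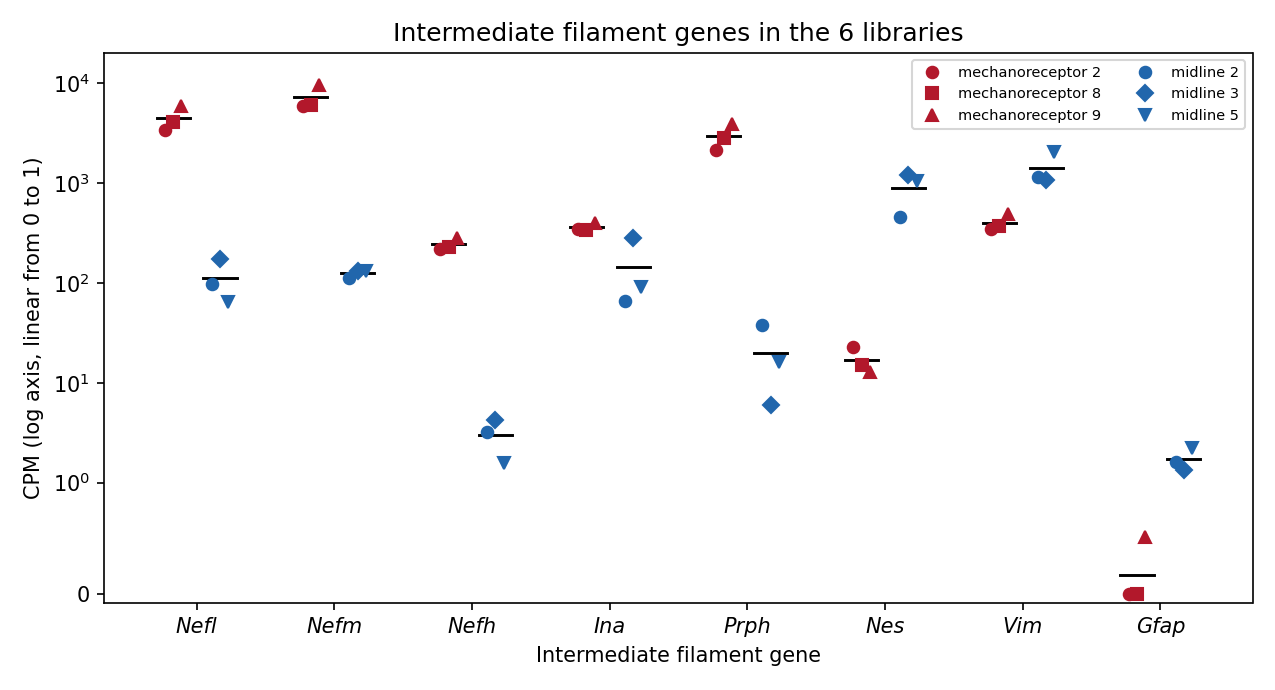
CPM of the 8 intermediate filament genes (log axis, linear from 0 to 1) in mechanoreceptor libraries 2, 8 and 9 (red) and midline libraries 2, 3 and 5 (blue); each symbol is 1 library and each black bar the mean of 3. Nefl, Nefm, Nefh and Prph lie far higher in mechanoreceptors, Nes and Vim lie higher in the midline, and the red and blue points of Ina come closest among the neuronal genes.

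Nefl, the light neurofilament subunit on which neurofilament assembly depends, reached 3390, 4097 and 5912 CPM in mechanoreceptors 2, 8 and 9 and 96.6, 172 and 64.9 CPM in midline 2, 3 and 5. Every mechanoreceptor library lay far above every midline library, and mechanoreceptor 9 was the highest. This gave a log2 fold change of 5.33 (SE 0.48, adjusted p = 0.000404 by edgeR's quasi-likelihood test, higher in 3 of 3 libraries), or 40.2-fold.

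Nefm, the medium subunit, whose long tail projects from the filament, reached 5863, 6096 and 9631 CPM in mechanoreceptors and 113, 133 and 132 CPM in the midline. Mechanoreceptor 9 again stood highest, and the midline libraries lay close together. The log2 fold change was 5.84 (SE 0.36, adjusted p = 0.000155 by edgeR). Per transcript length Nefm ranked 9, 9 and 6 among 22233 genes in mechanoreceptors 2, 8 and 9, where rank 1 is the highest level.

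Nefh, the heavy subunit, which is known to accumulate later than the others as axons mature, was measured at 220.2, 231 and 284 CPM in mechanoreceptors and at 3.21, 4.24 and 1.58 CPM in the midline. The midline values rest on 20, 19 and 10 counts, and the groups stood far apart. The log2 fold change of 6.37 (SE 0.36, adjusted p = 0.000139 by edgeR) exceeded those of both other subunits as a value. The ratio of Nefh to Nefm counts did not separate the groups, with log2 ratios of -4.73, -4.72 and -5.09 in mechanoreceptors and -5.11, -4.93 and -6.31 in the midline (difference 0.60, exact two-sided permutation p = 0.2, adjusted p = 0.229). With 3 libraries against 3 that test cannot give a p below 0.1, which is the smallest it allows.

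Prph encodes peripherin, the filament protein of peripheral and some cranial and motor neurons. Its level was 2116, 2851 and 3895 CPM in mechanoreceptors and 38.2, 6.02 and 16.1 CPM in the midline. By log2 fold change the groups lay farther apart than in the other 7 genes, and the midline libraries themselves were scattered, with midline 2 the highest and midline 3 the lowest. Its log2 fold change was 7.19 (SE 0.73, adjusted p = 0.000605 by edgeR), or 146-fold, and it was 8.06 without midline 2, where the midline value was highest. Midline 2 also had the highest summed level of 6 Schwann cell and satellite glia markers among the midline libraries, at 62.4 CPM against 21.2 and 20.99, besides its muscle and connective tissue markers. The part of these cells in the Prph value was not tested. The 10 sensory neuron markers summed to 123, 185 and 142 CPM in midline 2, 3 and 5, with midline 2 the lowest, and among them Isl1 (10.9, 2.01 and 7.73 CPM) and P2rx3 (6.26, 2.23 and 2.37 CPM) were highest in midline 2.

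Ina, the gene of alpha-internexin, an early neuronal filament protein of the central nervous system, stood at 347, 339 and 394 CPM in mechanoreceptors and at 66.1, 278 and 91.2 CPM in the midline. Midline 3 came near the mechanoreceptor libraries and the other midline libraries lay well below them, so the groups did not overlap but the midline spread was wide. The log2 fold change of 1.31 (SE 0.49, adjusted p = 0.0675 by edgeR) did not pass the threshold. In the authors' deposited table the log2 fold change of Ina, given there as midline over mechanoreceptor, was -1.72 with a false discovery rate of 0.00134, which is past it. Without midline 3 the log2 fold change was 2.20 (adjusted p = 0.000345 by edgeR). Spinal neuron markers were also highest in midline 3: the 9 genes of that list, led by Tfap2b, Gad2 and Pax2, summed to 139, 1095 and 361 CPM in midline 2, 3 and 5, against 2.17 to 4.38 CPM in mechanoreceptors. Of that list 8 genes were tested and 8 were higher in the midline, against 18.9% of all genes tested. These 8 passed the filter on low counts through their midline counts, so they could be called only toward the midline. Lhx5, 1 of them, was at 0 in mechanoreceptors. Lbx1, which was not tested, had 1 count in midline 3 and none in any other library. The part of spinal neurons in the Ina level was not tested.

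Nes encodes nestin, the filament protein of neural stem and progenitor cells. It was measured at 22.95, 14.97 and 12.9 CPM in mechanoreceptors and at 453, 1202 and 1044 CPM in the midline. All 3 midline libraries were far above all mechanoreceptor libraries, and midline 2 was the lowest of them. The difference was -5.73 on the log2 scale (SE 0.47, adjusted p = 0.000314 by edgeR), or 53.0-fold higher in the midline. Midline 2 was also the lowest in radial glia markers, whose 7 genes summed to 1173, 3263 and 4610 CPM in midline 2, 3 and 5, and in roof plate markers, at 291, 887 and 1149 CPM. The part of cell make-up in the Nes level was not tested.

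Vim encodes vimentin, which pairs with nestin in progenitor filaments. It reached 346, 375 and 484 CPM in mechanoreceptors and 1144, 1060 and 2037 CPM in the midline. The groups were separate, with midline 5 the highest, but the mechanoreceptor level was far from 0. The log2 difference was -1.82 (SE 0.32, adjusted p = 0.00405 by edgeR), or 3.52-fold higher in the midline. Markers of endothelium and pericytes, which also make vimentin, summed to 591, 542 and 579 CPM in midline 2, 3 and 5 and to 65.3 to 133 CPM in mechanoreceptors. Of these markers 7 of 7 were higher in the midline, against 18.9% of all genes tested. Rgs5, Cldn5 and Abcc9 among them needed their midline counts to pass the filter on low counts. The meningeal and connective tissue markers peaked in midline 2, whereas Vim peaked in midline 5. The part of these cells in the Vim level was not tested.

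Gfap, the filament gene of mature astrocytes, was near the limit of detection at this age. Its counts were 0, 0 and 4 in mechanoreceptors 2, 8 and 9 and 10, 6 and 14 in midline 2, 3 and 5, or at most 0.511 CPM against 1.34 to 2.21 CPM. A count of 0 allows up to 3 counts, which is 0.346 CPM in mechanoreceptor 2 and 0.356 CPM in mechanoreceptor 8. Summed over each group and scaled by library size, the midline level was 11.0 times the mechanoreceptor level, with an exact 95% interval of 3.86 to 42.8 that covers counting error only. The log2 fold change of -3.26 (SE 1.12, adjusted p = 0.0507 by edgeR) lay just outside the threshold. In the authors' deposited table the log2 fold change for the same transcript was 2.47 toward the midline, with a false discovery rate of 0.0226. The other Gfap transcript there had 1.96 toward the midline with a false discovery rate of 0.084, which is not past the threshold. Of 6 other astrocyte markers 4 were higher in the midline, against 18.9% of all genes tested. The 6 summed to 377, 1147 and 1019 CPM in midline 2, 3 and 5 against 128 to 185 CPM in mechanoreceptors. Mlc1, 1 of the 4, was at 0 in mechanoreceptors. It passed the filter on low counts through its midline counts, so it could be called only toward the midline. Aqp4 and Aldoc of that list were not called.

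**Figure D2:**
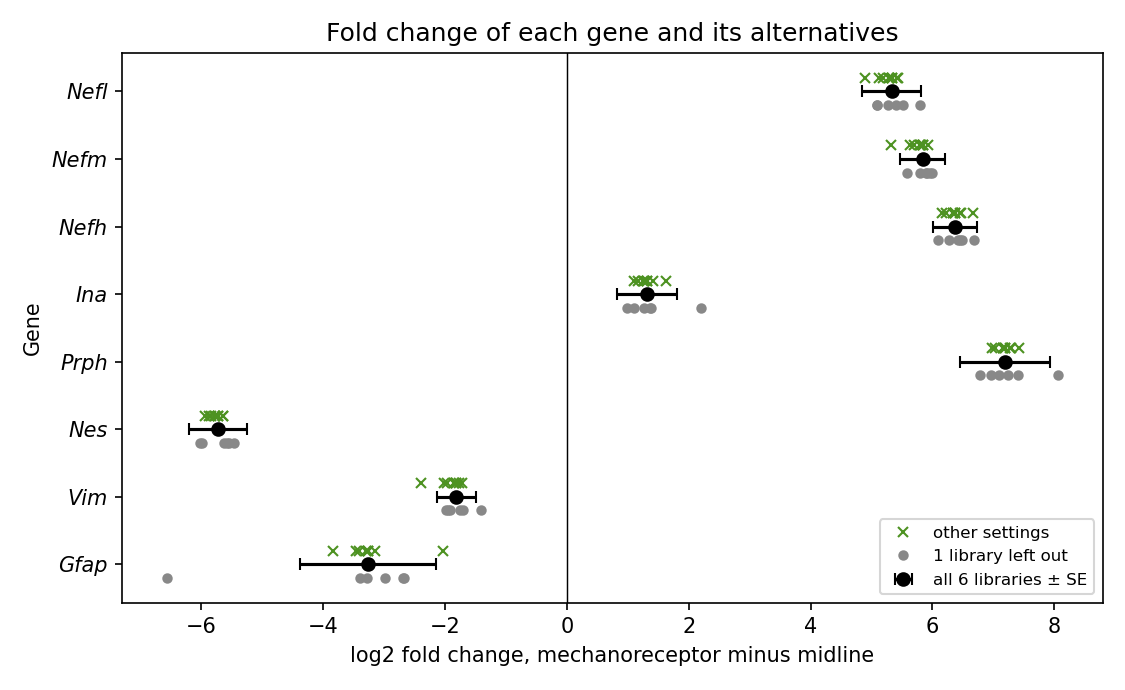
Log2 fold change (mechanoreceptor minus midline) of each intermediate filament gene with its standard error (black), under the other scalings, filters, tests and transcript choices (green crosses) and with 1 library left out (grey). Nefl, Nefm, Nefh and Prph stay at or above 4.89 and Nes at or below -5.46 in the fits shown, Vim stays between -2.39 and -1.42, and the fits of Gfap are the most scattered.

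Nefl, Nefm, Nefh, Prph, Nes and Vim were called in the same direction in all 15 other fits tried. The plot of fold changes and their alternatives shows how far each moved. Gfap moved from -3.26 to -6.57 without mechanoreceptor 9, the library that held all 4 of its mechanoreceptor counts. With that library left out the fitted value has no count to rest on, and the midline level was then at least 10.02 times higher, against a floor of 3 counts over both remaining libraries. Without mechanoreceptor 2 the log2 fold change of Gfap was -2.68, and without mechanoreceptor 8 it was -2.69.

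Levels of different genes can be set beside each other per transcript length, as CPM per kilobase. In mechanoreceptors the order of the mean levels was Nefm (2159 ± 633 CPM per kilobase, SD, n = 3), Prph (1586 ± 480), Nefl (1321 ± 385), Vim (183 ± 33.1), Ina (111 ± 9.28), Nefh (61.3 ± 8.498), Nes (2.77 ± 0.867) and Gfap (0.0643 ± 0.111). The ranges of Nefm, Prph and Nefl overlapped between libraries, but the order of these 3 was the same in 3 of 3 libraries. From Nefl to Gfap no neighbours overlapped in range.

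In the midline the order was Vim (645 ± 247 CPM per kilobase, SD, n = 3), Nes (147 ± 64.5), Ina (44.8 ± 35.8), Nefm (37.7 ± 3.31), Nefl (32.9 ± 16.3), Prph (10.8 ± 8.83), Nefh (0.753 ± 0.336) and Gfap (0.649 ± 0.169). Vim stood above Nes in range and Prph above Nefh, while the other neighbours overlapped. Ina exceeded Nefm in 1 of 3 midline libraries, so their order rests on midline 3. Vim ranked 47, 48 and 15 among 22233 genes in midline 2, 3 and 5, and Nes ranked 669, 177 and 214.

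The 5 neuronal genes together took 1.05%, 1.20% and 1.82% of all counts of the kept transcript rows in mechanoreceptors 2, 8 and 9, and 0.0350%, 0.0671% and 0.0343% in midline 2, 3 and 5. Of the summed level per kilobase of all 8 genes, the neuronal genes made up 96.2%, 96.5% and 96.9% in mechanoreceptors and 14.9%, 21.02% and 8.02% in the midline. Within these 8 genes, the level in mechanoreceptors was nearly all neuronal, and that in the midline was mostly Vim and Nes.

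The make-up of the neuronal transcripts was compared as shares, and no share had an adjusted p under 0.05 in a test that cannot reach it. Ina made up 2.64%, 2.21% and 1.76% of the neuronal filament level per kilobase in mechanoreceptors 2, 8 and 9, and 19.6%, 47.4% and 29.4% in midline 2, 3 and 5. Prph made up 27.98%, 32.3% and 30.2% in mechanoreceptors and 19.7%, 1.82% and 9.05% in the midline. Both shares separated the groups without overlap (exact two-sided permutation p = 0.1 each, the smallest that 3 against 3 libraries can give, adjusted p = 0.16 over 8 shares).

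**Figure D3:**
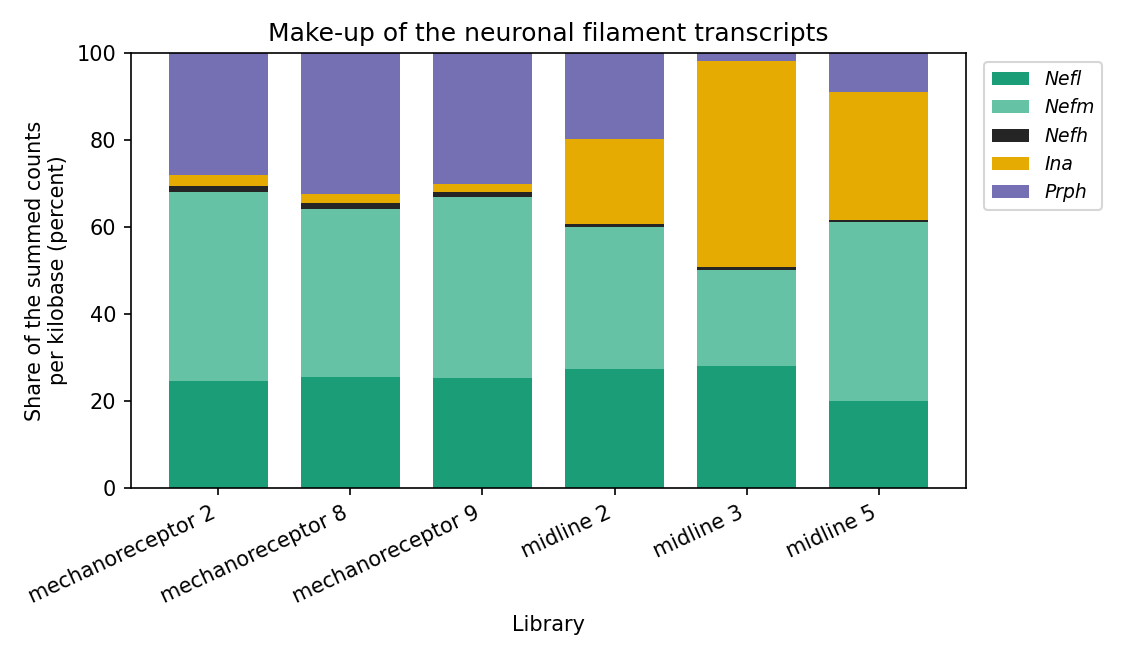
Share (percent) of each neuronal intermediate filament gene in the summed counts per kilobase of Nefl, Nefm, Nefh, Ina and Prph, 1 bar per library. Ina takes 1.76% to 2.64% in the mechanoreceptor libraries and 19.6% to 47.4% in the midline libraries, while the share of Nefl differs little between the groups.

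Nefl held 24.7%, 25.6% and 25.3% of the neuronal level in mechanoreceptors and 27.4%, 28.2% and 20.02% in the midline, and the groups overlapped (means 25.2% and 25.2%, exact permutation p = 1). Nefm held 43.3%, 38.6% and 41.7% against 32.5%, 22.001% and 41.2%, which also overlapped (exact permutation p = 0.2, adjusted p = 0.267). Nefh was a minor part in both, at 1.36%, 1.22% and 1.03% in mechanoreceptors and at 0.789%, 0.601% and 0.432% in the midline, without overlap (exact permutation p = 0.1, adjusted p = 0.16). Lengths of coding sequence in place of whole transcripts, an alternative chosen after the data were seen, moved the difference in the Nefl share (mechanoreceptor minus midline) from 0.00334 to 5.36 percentage points. With 1 library left out that difference ran from -2.585 without midline 5 to 1.48 without midline 3, and it was also below 0 without mechanoreceptor 8 or 9, so it has no stable sign.

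Ratios of counts between 2 genes within a library do not depend on how libraries are scaled, and 8 such pairs were compared. The log2 ratio of Nefl to Nefm was -0.79, -0.57 and -0.70 in mechanoreceptors and -0.23, 0.38 and -1.02 in the midline, with overlap (difference -0.40, exact permutation p = 0.4). The log2 ratio of Ina to Nefm was -4.08, -4.17 and -4.61 in mechanoreceptors and -0.77, 1.07 and -0.53 in the midline, with no overlap (difference -4.21). The log2 ratio of Prph to Nefm was -1.47, -1.10 and -1.31 in mechanoreceptors and -1.56, -4.44 and -3.03 in the midline, where midline 2 came within reach of the mechanoreceptors (difference 1.72). Against Ina itself, Nefl differed by 3.81 and Prph by 5.92 on the log2 scale, both without overlap. Each of the pairs without overlap had an exact permutation p of 0.1 (adjusted p = 0.16 over 8 pairs). Within the neuronal class the log2 fold changes thus ran from 1.31 for Ina to 7.19 for Prph. Without midline 3 the difference was 1.004 for Prph to Nefm and 4.64 for Prph to Ina, and without midline 2 it was 2.44 and 6.99.

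Among the progenitor and glial genes, the log2 ratio of Vim to Nes was 3.91, 4.64 and 5.22 in mechanoreceptors and 1.34, -0.18 and 0.96 in the midline. The groups did not overlap (difference 3.89, exact permutation p = 0.1, adjusted p = 0.16). Per kilobase, Nes made up 12.4%, 28.8% and 15.5% of the summed Nes, Vim and Gfap level in midline 2, 3 and 5 and 0.949% to 2.32% in mechanoreceptors. Vim made up nearly all of that level in mechanoreceptors, at 97.7%, 98.6% and 98.95%. The ratio of Gfap to Vim overlapped between the groups (log2 difference -2.06, exact permutation p = 0.2). It rests on 0.5 added to a Gfap count of 0 in mechanoreceptors 2 and 8, and the difference was -1.42 with 1 added instead and -3.02 without mechanoreceptor 9.

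The members also varied among themselves within a group. In mechanoreceptors, library 9 was the highest in 7 of the 8 genes, at 132%, 134% and 132% of the group mean for Nefl, Nefm and Prph, 116% for Nefh, 110% for Ina and 120% for Vim. Nes ran the other way, at 76.1% of its mean in mechanoreceptor 9 and 135% in mechanoreceptor 2. The coefficient of variation in mechanoreceptors was 29.1% for Nefl, 29.3% for Nefm and 30.3% for Prph, and 8.35% for Ina and 13.9% for Nefh. Summed sensory neuron markers in mechanoreceptor 9 stood at 93.8% of their group mean, below the mean, while the neuronal filament genes were above theirs.

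In the midline the genes did not share a highest library. Ina, Nefl, Nefh and Nes were highest in midline 3, Prph was highest in midline 2, and Vim and Gfap were highest in midline 5. Nefm was nearly even, with a coefficient of variation of 8.78%, against 79.8% for Ina and 81.8% for Prph. The plot of midline libraries sets these genes beside a part of the marker lists, without the Schwann cell and satellite glia list and the keratinocyte list.

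**Figure D4:**
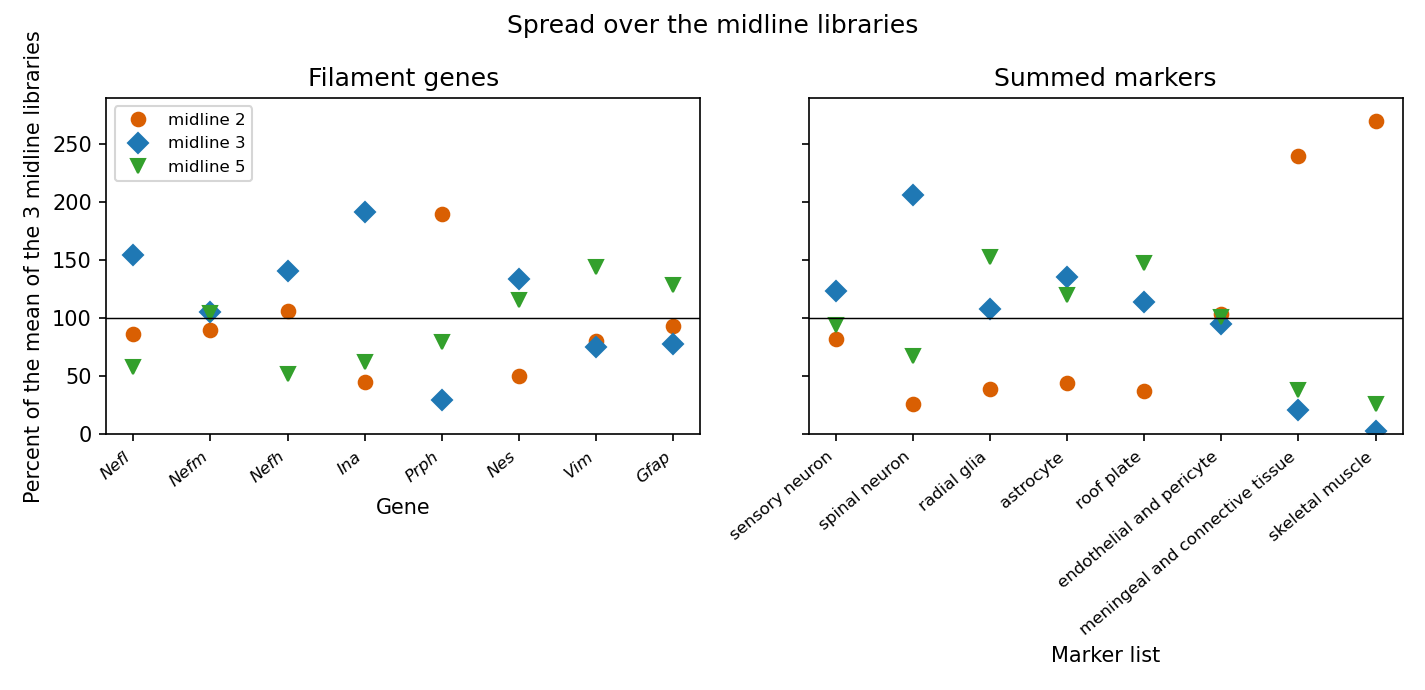
Level of each intermediate filament gene (left) and summed CPM of each marker list shown (right) in midline libraries 2, 3 and 5, as percent of the mean of the 3. Ina stands at 192% in midline 3, where the spinal neuron markers stand at 206%, while Prph stands at 190% in midline 2, where the muscle and meningeal lists also peak.

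Across all 6 libraries, likeness of pattern was measured as the root mean square difference of centred log2(CPM + 1) against 11039 other genes with a mean of at least 10 CPM. The 6 points fall into the 2 cell types, so this measure mostly follows the size of the difference between them. The 1 added to each CPM narrows differences that reach values near or below 1 CPM, so a near gene can have another log2 fold change. Nearest to Nefl were Ppef1, a protein phosphatase gene (0.196), Lix1 (0.233) and the non-coding gene Gm16551 (0.288). Gm16551 lay at 0.160, 2.01 and 0.158 CPM in midline 2, 3 and 5, with a log2 fold change of 6.71 against 5.33 for Nefl. Nefm and Nefh shared their nearest genes, Fkbp1b, an immunophilin gene (0.273 and 0.248), and Cpne6, a copine gene (0.306 and 0.176). The third was Pou4f2, a transcription factor gene, for Nefm (0.320), and Avil, an actin regulator of sensory neurons, for Nefh (0.291).

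Prph had no close match, with Ppp1r1c (0.547), the synuclein gene Sncg (0.604) and the ATP-gated channel gene P2rx3 (0.629) the nearest. Ina had a very close one, Grik1, a kainate receptor subunit (0.0568), at 88.7, 85.4 and 104 CPM in mechanoreceptors and 16.2, 68.7 and 20.5 CPM in the midline. Amph, the gene of the endocytic protein amphiphysin (0.140), and 2900011O08Rik, now Bmerb1 (0.143), followed. All 3 shared with Ina a high value in midline 3 and a modest difference between the cell types.

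Nes was nearest to Hopx, an atypical homeodomain gene (0.298), and then to the non-coding gene AI854517, now Mir9-3hg (0.373). Hopx lay at 0.119 to 0.511 CPM in mechanoreceptors, with a log2 fold change of -7.50 against -5.73 for Nes. Vim was nearest to Zfp503 (0.124), the phosphatase gene Cdc14a (0.137) and Mpp6 (0.157). Gfap lay below the level needed for this measure.

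Genes of proteins that move, anchor, modify or remove intermediate filaments were counted in 5 lists. All 8 motor genes were called, 71.4% of the plakin list, 60% of the modifying enzymes, 46.2% of the other intermediate filaments tested and 44.4% of the turnover genes, beside 37.8% of all genes tested. The motors that the 8 genes encode carry neurofilaments along microtubules or actin. Of these 7 were higher in mechanoreceptors, Kif5b was higher in the midline, and the median log2 fold change was 1.92. Kif5a, the neuronal kinesin heavy chain, stood at 761, 898 and 934 CPM in mechanoreceptors and at 70.3, 216 and 105 CPM in the midline (a log2 fold change of 2.73, SE 0.41, adjusted p = 0.00236 by edgeR). Its relative Kif5b, the kinesin heavy chain of most cell types, went the other way, at 193, 190 and 170 CPM against 307, 402 and 400 CPM (a log2 fold change of -1.004, SE 0.20, adjusted p = 0.00627 by edgeR). In both the groups did not overlap.

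Kif5c, also a neuronal heavy chain, had a log2 fold change of 1.64 (adjusted p = 0.0268 by edgeR), which was 2.37 without midline 3 and lost its call without any of the mechanoreceptor libraries or midline 5 (adjusted p 0.0639 to 0.0818) and with the deposited log2 values (0.0605). Midline 3 was its highest midline library, at 865 CPM against 214 and 369. Dync1h1, the heavy chain of the dynein that runs back to the cell body, differed by 1.67 on the log2 scale, and Myo5a, a myosin that binds the light neurofilament subunit, by 2.12. The kinesin light chain genes Klc1 and Klc2 differed by 2.54 and 1.83, and the dynactin gene Dctn1 by 2.01, all 3 past the threshold toward mechanoreceptors.

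Among 7 plakin and related genes, whose giant proteins tie filaments to other structures, 5 were called, 2 toward mechanoreceptors and 3 toward the midline, with a median log2 fold change of -1.80. Without mechanoreceptor 2 or 9 both counts were 1, and without mechanoreceptor 8 or midline 5 the first was 1. The 3 genes toward the midline were Eppk1, Dsp and Ppl. They passed the filter on low counts through their midline counts, so they could be called only toward the midline, and the median includes them. Dst, a plakin required by sensory neurons, stood at 1799, 1517 and 1495 CPM in mechanoreceptors and at 636, 516 and 533 CPM in the midline (a log2 fold change of 1.51, SE 0.22, adjusted p = 0.00219 by edgeR). The groups were well apart in Dst, and Plec, the gene of plectin, was also higher in mechanoreceptors (log2 fold change 1.42, adjusted p = 0.0262 by edgeR). The call of Plec was lost without any mechanoreceptor library or without midline 5, at adjusted p-values of 0.0547 to 0.0788, and with the deposited log2 values (0.0599). Macf1, a spectraplakin gene related to Dst, had a log2 fold change of -0.76 that missed the threshold (adjusted p = 0.0515 by edgeR) and passed it in 7 of 14 other fits. Evpl, the envoplakin gene, had a log2 fold change of -1.80 that did not pass (adjusted p = 0.162 by edgeR).

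The 3 plakin genes higher in the midline are known from epithelia: Eppk1, the epiplakin gene, and Dsp and Ppl, genes of desmoplakin and periplakin. Eppk1 had 309 counts in the midline and 2 in mechanoreceptors, a ratio of 226 (exact 95% interval 62.0 to 1873, counting error only), and lay at 13.2, 21.4 and 20.7 CPM in midline 2, 3 and 5. Dsp stood at 156, 6.47 and 6.47 CPM in midline 2, 3 and 5 and Ppl at 61.9, 3.12 and 3.63 CPM, so midline 2 carried most of both. Their log2 fold changes of -6.26 and -5.94 were -3.11 and -3.17 without midline 2, where the call of Ppl was lost (adjusted p = 0.0523 by edgeR). The call of Dsp was also lost without mechanoreceptor 2 or 9 (adjusted p = 0.0566 each) and with limma-voom (0.126), and that of Ppl without any mechanoreceptor library (0.0504 to 0.0619), with limma-voom (0.0952) and with the deposited log2 values (0.058). The 3 keratinocyte markers were also highest in midline 2, unlike Eppk1, and their part in the values of Dsp and Ppl was not tested.

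**Figure D5:**
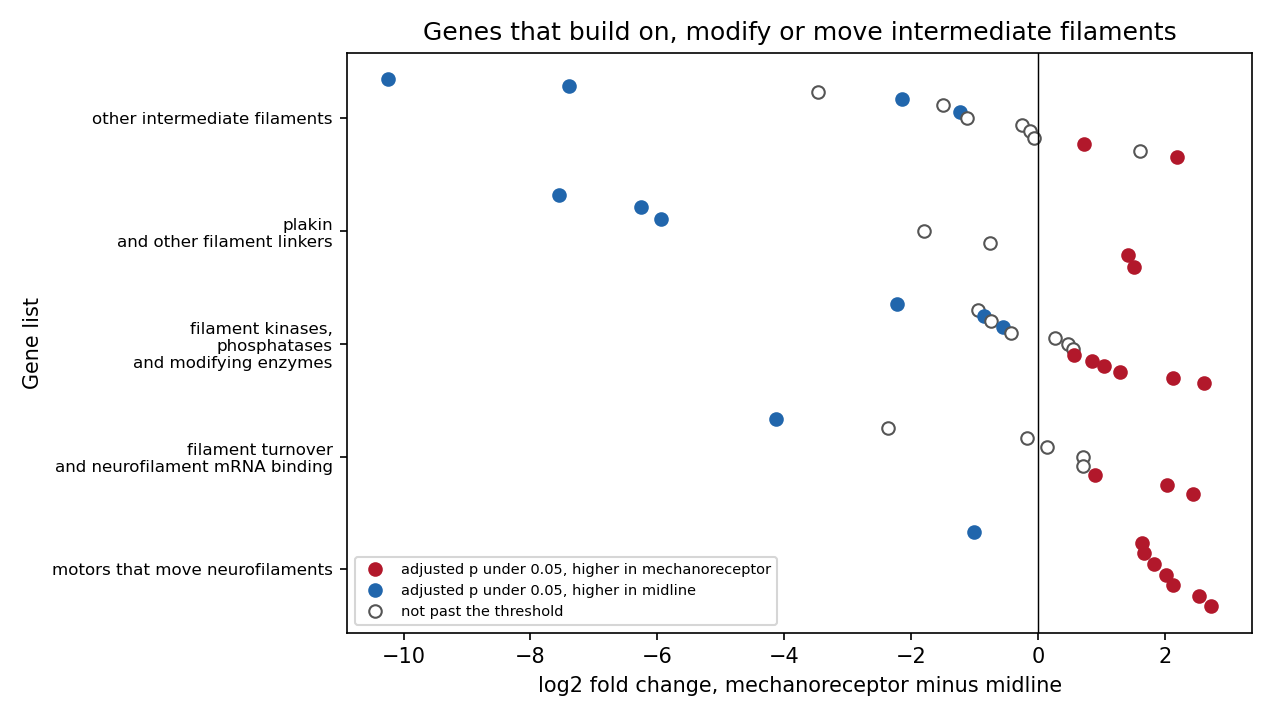
Log2 fold change (mechanoreceptor minus midline) of each tested gene in 5 lists of intermediate filament relatives and partners; filled points have an adjusted p under 0.05. The 8 motor genes are all filled, 7 of them to the right of 0, while the largest differences to the left of 0 are in the plakin list and among the other intermediate filament genes.

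Of 17 other intermediate filament genes, 13 were tested and 6 were called, 2 toward mechanoreceptors and 4 toward the midline (median log2 fold change -1.12). The first count was 1 without midline 5 or any mechanoreceptor library, and the second was 2 without any mechanoreceptor library and 6 without midline 3. Of the 4 toward the midline, Des, Krt5 and Bfsp1 passed the filter on low counts through their midline counts. They could therefore be called only toward the midline, and the median includes them. Synm, the gene of synemin, a partner of vimentin and desmin, stood at 288, 268 and 274 CPM in mechanoreceptors and at 21.5, 95.3 and 65.8 CPM in the midline (a log2 fold change of 2.19, SE 0.46, adjusted p = 0.00857 by edgeR). The mechanoreceptor libraries were close together and all higher, unlike in Vim. Iffo2, an intermediate filament family orphan, also passed toward mechanoreceptors (log2 fold change 0.72, adjusted p = 0.0412 by edgeR), but it lost its call in 9 of 14 other fits, with adjusted p-values up to 0.119.

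Toward the midline, Des, the muscle filament gene of desmin, was at 293, 4.68 and 32.2 CPM in midline 2, 3 and 5 and at 0.577 to 0.713 CPM in mechanoreceptors. Midline 2, which held the highest muscle markers, was far above the others, and the log2 fold change of -7.38 (SE 1.53, adjusted p = 0.00801 by edgeR) was -4.79 without it. The call of Des was lost with limma-voom (adjusted p = 0.153). Krt5, a keratin of basal epidermis, was at 205, 2.45 and 2.37 CPM in midline 2, 3 and 5 with 1 count in all mechanoreceptor libraries, a ratio of 1903 (exact 95% interval 341 to 75207, counting error only). Midline 2 held 1276 of its 1302 midline counts. Its call was lost without any mechanoreceptor library and with limma-voom, at adjusted p-values of 0.0651 to 0.133. Krt15 was not tested, and its 729 midline counts, 721 of them in midline 2, against none in mechanoreceptors put it at least 355-fold higher against a floor of 3 counts over the group.

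Lmnb1, the gene of the nuclear lamin B1, was higher in all midline libraries, at 66.7, 47.3 and 42.1 CPM against 16.2 to 25.4 CPM (a log2 fold change of -1.23, SE 0.28, adjusted p = 0.0113 by edgeR). Bfsp1, a lens filament gene, was low, with 10 to 15 counts in each midline library, and its log2 fold change of -2.15 (adjusted p = 0.0305 by edgeR) lost its call in 9 of 13 other fits, with adjusted p-values up to 0.367. Lmna, the gene of lamins A and C, had a log2 fold change of -0.07 with all libraries (adjusted p = 0.951 by edgeR) and of 1.49 without midline 2 (adjusted p = 0.0224). Midline 2 stood at 108 CPM in Lmna against 9.15 and 23.05 CPM in midline 3 and 5. Iffo1, another family orphan, did not pass with all libraries (log2 fold change -1.12, adjusted p = 0.176 by edgeR), was at -0.10 without midline 2 and passed without midline 3 (-1.56, adjusted p = 0.0178).

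Of 15 genes of kinases, phosphatases and other modifying enzymes that act on filament proteins, 9 were called, 6 toward mechanoreceptors and 3 toward the midline (median log2 fold change 0.47). The first count was 3 without mechanoreceptor 8. Cdk5r2, an activator of the neuronal kinase Cdk5, which phosphorylates neurofilament tails, differed by 2.61 on the log2 scale (SE 0.51, adjusted p = 0.00652 by edgeR), and by 3.49 without midline 3. Mapk3, the gene of the kinase ERK1, stood at 274, 305 and 242 CPM in mechanoreceptors and at 45.6, 66.5 and 77.0 CPM in the midline (a log2 fold change of 2.12, SE 0.24, adjusted p = 0.00091 by edgeR). Gsk3b, Cdk5 and Ppp2ca were also higher in mechanoreceptors, with log2 fold changes of 1.29, 1.05 and 0.56. Cdk5 lost its call without mechanoreceptor 8 or 9 (adjusted p = 0.058 and 0.057), and that of Ppp2ca was lost in 9 of 14 other fits, with adjusted p-values up to 0.463.

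Toward the midline, Ogt, which adds a sugar to filament tails, differed by -0.85 on the log2 scale, and Rock1 and Aurkb, kinases that phosphorylate vimentin or Gfap protein, by -0.56 and -2.22. Ogt lost its call without mechanoreceptor 8 or 9 or midline 5 (adjusted p 0.0688 to 0.0832). Rock1 lost it with no count filter and without any library except midline 3 (adjusted p 0.0862 to 0.181), and Aurkb without mechanoreceptor 8 or 9 or midline 2 and with the deposited log2 values (adjusted p 0.0685 to 0.139). Aurkb stood at 49.1, 12.5 and 14.4 CPM in midline 2, 3 and 5 and at 9.92, 4.28 and 2.04 CPM in mechanoreceptors 2, 8 and 9, so midline 2 was far above the others, and its log2 difference was -1.28 without midline 2 and -2.97 without mechanoreceptor 2. Without midline 2 or midline 5, 1 gene of this list was called toward the midline. Rock2, the kinase related to Rock1, had a log2 fold change of -0.75 and did not pass (adjusted p = 0.0564 by edgeR), though it passed in 6 of 14 other fits.

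Of 9 genes of filament turnover and of proteins that bind neurofilament mRNA, 4 were called, 3 toward mechanoreceptors and Cryab toward the midline (median log2 fold change 0.70). Toward the midline, 2 genes were called without midline 3. Trim2, a ubiquitin ligase of the light subunit, stood at 596, 542 and 424 CPM in mechanoreceptors and at 77.3, 180 and 126 CPM in the midline, with the groups far apart (log2 fold change 2.03, SE 0.33, adjusted p = 0.00299 by edgeR). The calcium-dependent proteases Capn1 and Capn2, which cut neurofilaments, differed by 2.44 and 0.90. Capn1 differed by 3.17 without midline 2, and Capn2 lost its call without mechanoreceptor 8 or 9 (adjusted p = 0.072 and 0.0806), with upper-quartile scaling (0.0584) and with the deposited log2 values (0.118). Cryab, a small heat shock gene whose protein binds desmin and Gfap protein, was at 231, 2.68 and 21.8 CPM in midline 2, 3 and 5 and at 2.65 to 7.79 CPM in mechanoreceptors, so the groups overlapped. Its log2 fold change of -4.14 (adjusted p = 0.0411 by edgeR) was -1.32 without midline 2 (adjusted p = 0.23), and the call was also lost without any mechanoreceptor library (adjusted p 0.0951 to 0.137), with limma-voom (0.232) and with the deposited log2 values (0.327). Rgnef, now Arhgef28, whose protein binds the light-subunit mRNA, had a log2 fold change of 0.70 that did not pass (adjusted p = 0.0689 by edgeR) but did without midline 2 (0.90, adjusted p = 0.0387), and Tardbp and Stub1 had -0.17 and 0.14.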

How the data were processed

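RNA had been sequenced on an Illumina instrument, per the labels. The authors deposited whole-number counts per RefSeq transcript for each of the 6 libraries, and the submitters' processing notes name edgeR and the build mm9. The sources used here give no aligner, counting tool or strand, so reads of a gene and of an overlapping or antisense partner cannot be told apart. The deposited table also held log2 values of expression, a log2 fold change and a false discovery rate p-value per transcript. For each of the 22869 symbols the transcript row with the highest summed count was kept. Reads in shared exons can stand in more than 1 row of a gene.

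Counts were tested with edgeR 4.0.16 in R 4.3.3 (filterByExpr with a minimum count of 10 and a minimum total of 15, TMM scaling, glmQLFit and glmQLFTest, 4 residual degrees of freedom). The Benjamini-Hochberg adjustment ran over all 15314 genes tested, with a call at an adjusted p under 0.05. The SE is the log2 fold change over the square root of F. The p-values reflect the spread of these samples alone, and it may be technical. CPM are TMM-scaled. Lengths came from the mouse annotation of GRCm38 for 22233 genes (97.2%). Count ratios, with 0.5 added to each count, and shares were compared by exact two-sided permutation tests. Scripts were tested on simulated data.

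The named genes are the 8 members, Ret, up to 4 called genes in the majority direction, 2 in the other and 2 not called per partner list by mean CPM, and the 3 nearest genes to each member with a mean of at least 10 CPM. Krt15, the remaining motor genes, Cdk5, Aurkb, Rgnef and single marker genes were named after their values were seen. Some genes that the rule takes are not reported here. Members, lists and tests were chosen with earlier results of these data known. Alternatives were RLE and upper-quartile scaling, other count filters, DESeq2 1.42.0, limma-voom and the deposited log2 values in limma 3.58.1, other transcript rows, and each library left out.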

Additional observations from a re-analysis of the deposited data

How the results depend on the processing

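Of the comparisons and counts tried under the alternatives, 410 values kept their call or moved by less than the spread or 1.5 times, 10 newly passed the threshold, 35 moved further, and no called value changed direction. The difference in the Nefl share, which is not called, ran from -2.585 to 1.48 with 1 library left out. The log2 fold change of Ina passed edgeR's threshold with no count filter (1.41, adjusted p = 0.04), and with DESeq2 (1.27, 0.0284) and limma-voom (1.62, 0.0214), and ran from 0.99 to 2.20 with 1 library left out (adjusted p 0.000345 to 0.167). That of Gfap passed with RLE scaling (-3.30, adjusted p = 0.0493), upper-quartile scaling (-3.46, 0.042), DESeq2 (-3.41, 0.0437), limma-voom (-3.84, 0.0192) and all transcript rows in 1 edgeR fit (-3.26, 0.0491). It ran from -6.57 to -2.68 with 1 library left out, was -2.04 with the deposited log2 values and was not tested under the filter of 50 counts in 3 libraries. Members called ran from 4 to 5 in mechanoreceptors and from 2 to 3 in the midline over all alternatives.

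With 1 library left out, genes called ran from 1893 to 3100 toward mechanoreceptors and from 1862 to 3082 toward the midline, both lowest without mechanoreceptor 8. For the other intermediate filaments those ranges were 1 to 3 and 2 to 6, for the plakins 1 to 2 and 1 to 4, for the modifying enzymes 3 to 6 and 0 to 4, and toward the midline 0 to 2 for the turnover genes. Other intermediate filaments higher in mechanoreceptors numbered 1 with RLE scaling, upper-quartile scaling and the stricter filter, and those higher in the midline 1 with the stricter filter and with limma-voom. Plakins higher in mechanoreceptors numbered 1 with the deposited log2 values. Turnover genes higher in the midline numbered 2 with DESeq2 and 0 with limma-voom, where Cryab had an adjusted p of 0.232. The difference in the Nefl share was 5.36 with coding length, chosen after the data were seen. The cause of these changes was not tested.

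Upper-quartile scaling moved the median log2 fold change of all genes by -0.21 and the share of calls toward mechanoreceptors to 36.9%, and the 6 called members kept their direction and call under it. No paired analysis was possible because the groups share a single replicate number. Depth limits Gfap, with 34 counts in all.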
